A study of Mus musculus with 7 samples.

Results

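The cadherin and protocadherin genes were taken as every gene of the count table whose symbol is Cdh followed by a number or starts with Pcdh. This rule gave 94 of the 23366 genes in the table. It leaves out more distant members of the superfamily, such as Fat, Celsr and desmosomal genes, which were read separately. RNA was counted in 7 bulk libraries of primary motor neurons dissected at E13.5 from C57BL/6 mouse spinal cord. There were 3 libraries from cells given a lentivirus that overexpresses miR-218 (OE), 2 from cells given a lentivirus that knocks miR-218 down (KD), and 2 from cells given an empty control lentivirus (control), all named pUltra in the titles. All 3 groups share the enrichment of motor neurons on an Optiprep gradient, culture with CNTF and GDNF, and fluorodeoxyuridine at 200 µM after day 5 to hold back glia. The labels do not say whether libraries of a group came from separate cultures, so the p-values measure only the spread between libraries, which may be technical. The design text speaks of duplicates although the titles list 3 OE libraries, and 1 protocol names a rat embryonic stage beside the mouse one.

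Cadherins are calcium-dependent adhesion proteins that bind like molecules on a neighbouring cell and, in the classical subfamilies, hold the actin cytoskeleton through catenins. In the spinal cord of chick and mouse, motor neurons of different pools carry different sets of type II cadherins, and these sets help like neurons to settle together. Non-clustered protocadherins of the delta groups guide axons and synapses, whereas each neuron chooses a few isoforms from the alpha, beta and gamma protocadherin clusters, which lie side by side in the genome and give it a surface identity. The microRNA miR-218 is abundant in motor neurons and lowers messenger RNAs that carry a match to its seed in the 3′ UTR.

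The altered RNA and its possible match in these genes are shown first. In the mature sequence from RefSeq (GRCm38.p6, Mir218-1 on chromosome 5) the capitals mark the seed, bases 2 to 8 counted from the 5′ end. The other lines are 27-base windows of the sense strand from build mm9 around each seed match in the longest annotated 3′ UTR (GENCODE vM1) of the tested members whose sequence is given here, with the 7-base match AAGCACA in capitals.
miR-218-5p: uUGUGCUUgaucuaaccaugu
Cdh8, chr8:101553280-101553306, minus strand: tttggtgtttttactacAAGCACAaac
Pcdh8, chr14:80166610-80166636, minus strand: taagctctgtcacttatAAGCACAgta
Pcdh10, chr3:45225302-45225328, plus strand: gatcatgtgtgtttccaAAGCACAgaa
Pcdh19, chrX:130119121-130119147, minus strand: agtttgagggcttgtaaAAGCACAggt
The Cdh8 match is followed by an A, which makes it the 8-base form AAGCACAA. A further 2 tested members, Pcdhb14 and Pcdhb18, held the 7-base match too. Among tested members with an annotated 3′ UTR, 6 of 36 held a match (16.7%), against 1804 of 11133 tested genes (16.2%). A letter match is a description of the sequence and not a measured binding site.

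Of the 94 genes, 52 had at least 1 count and 42 were listed at 0 in all 7 libraries. The zeros were 15 of 15 alpha-cluster genes, 22 of 22 gamma-cluster genes, Pcdhb1, Pcdhb6, Cdh19, Cdh24 and Pcdh12. The filter on low counts left 39 members to test among 12134 tested genes, and the 13 members counted but not tested held 1 to 39 reads over all libraries. CPM are counts scaled by the library's TMM-adjusted total over the tested genes. Read per length, as the mean CPM per kilobase of annotated exon, Cdh2 stood first with 129.1. Pcdh9 followed with 46.0, but its annotated exons hold no 3′ UTR, so that this per-kilobase level is on coding length alone. Pcdh11x (21.9), Pcdh17 (17.7), Cdh11 (15.2), Pcdh8 (15), Pcdh10 (13.1) and Pcdh19 (12.9) came next in CPM per kilobase. The part of each transcript that the reads cover is not given in the sources used here. An order per length therefore holds only if reads cover whole transcripts. By mean CPM alone the order was Cdh2 (1041), Pcdh11x (198), Pcdh9 (171), Pcdh17 (168), Pcdh10 (140), Pcdh19 (133), Cdh11 (64.0), Cdh8 (62.7) and Pcdh8 (60.0).

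**Figure D1:**
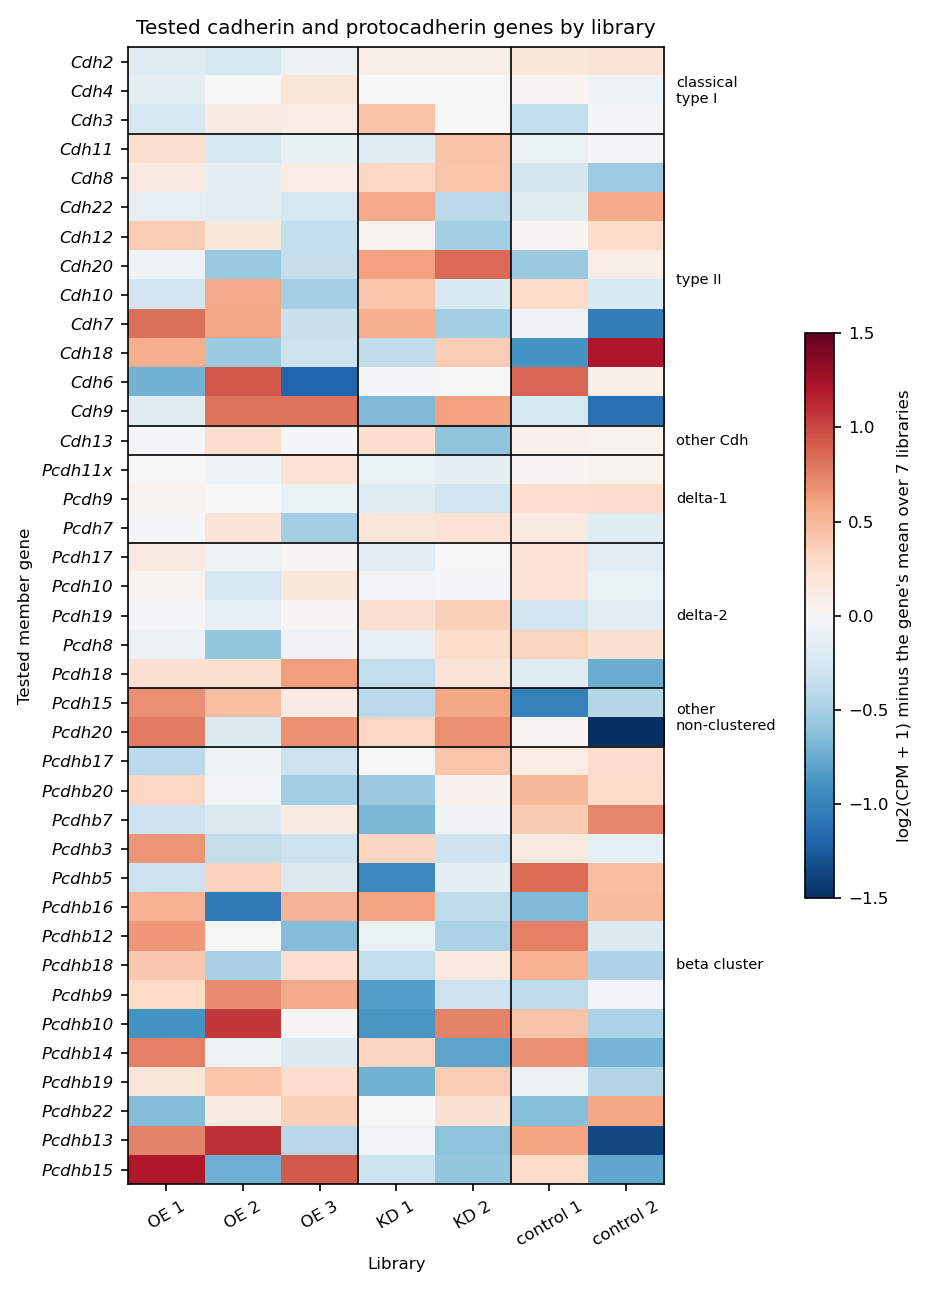
Heat map of the 39 tested members (rows, by structural group and falling mean level) in the 7 libraries (columns). Colour is log2(CPM + 1) minus the gene's own mean over the libraries, cut at 1.5 in either direction. Cdh2, Pcdh11x, Pcdh17 and Pcdh10 are pale in every library, while most beta-cluster genes in the lower part change colour between libraries of the same group.

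The libraries held 1591812 to 3360686 counts, with the control libraries the shallowest, and 0.219 to 0.261% of counts fell on members. Within groups, log2 CPM correlated at 0.954 to 0.973 across genes. Of the genes of the altered microRNA, Mir218-2 was at 0 in every library. Mir218-1 had 1126, 670 and 938 counts in OE, 137 and 179 in KD, and 107 and 81 in control libraries. It rose in OE against control (log2 fold change 2.47, edgeR adjusted p = 3.32e-12) and did not pass in KD against control (-0.13, adjusted p = 0.727). These counts are not of the mature microRNA and so leave the KD label unchecked. The motor neuron markers Mnx1 and Lhx4 were at 0 in every library, and the 12 motor neuron markers summed to 93.1 to 118 CPM in OE, 121 to 140.5 CPM in KD and 91.6 to 97.3 CPM in control libraries. Only 5 of these 12 were tested, and 1 passed as higher in each of OE and KD against control. Markers of dividing cells summed to 401 to 515 CPM in OE, 668 to 722 CPM in KD and 210 to 238 CPM in control libraries, and 8 of 8 passed as higher in both OE and KD against control. Smooth muscle and pericyte markers summed to 311 to 447 CPM in OE, 741 to 798 CPM in KD and 169 to 174 CPM in control libraries, with Des at 0 in all, and 3 of 3 tested passed as higher in both. Astrocyte and radial glia markers summed to 4294 to 4481 CPM in OE, 3736 to 4421 CPM in KD and 2767 to 3104 CPM in control libraries, with 4 of 10 higher and 1 lower in each of OE and KD. Fibroblast and meningeal markers summed to 222 to 296 CPM in OE, 261 to 292 CPM in KD and 158 to 178 CPM in control libraries, with 2 of 7 tested higher in OE and 1 in KD. Only 6 oligodendrocyte, 5 Schwann cell and neural crest, 1 microglial and 1 endothelial marker were tested. Of these, 1 gene of the Schwann cell and neural crest list, which includes Gap43 of growing axons, passed as lower in KD against control. No other passed against control. Of all tested genes, 3.65% passed as higher and 1.26% as lower in OE against control, and 7% and 4.71% in KD against control. In such bulk samples fewer cells of a type and less RNA per cell cannot be told apart.

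In OE against control, no cadherin or protocadherin passed the test in either direction (edgeR, adjusted p under 0.05 over all genes tested and a fold over 1.5). Over all tested genes, 3.65% were called higher and 1.26% lower in this comparison, 4.91% in all. At an unadjusted p under 0.05, 8 of 39 members (20.5%) were found, near the 19.2% of all tested genes, and DESeq2 and limma-voom also called 0 in each direction. The median log2 fold change of the 39 was 0.02, with 20 above and 19 below 0, against 0.00 for all tested genes. In the authors' deposited table, too, 0 members passed in either direction, where 2.28% of genes were higher and 0.836% lower. The interval of a member's log2 fold change had a half-width of 0.15 to 1.89 with a median of 0.72, and in 15 of 39 it was narrower than the 0.58 that a fold of 1.5 makes. In the other 24 members the half-width was larger than that. These intervals are not adjusted for the number of genes tested, so a narrow one does not mean that a change of that size would be called.

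In KD against control, Cdh8 rose and the beta-cluster genes Pcdhb5 and Pcdhb7 fell. These 3 of 39 are 7.69% of the tested members. Of all tested genes, 7% were called higher and 4.71% lower, so 11.7% in all, and the members stood below that share. The 2 genes that passed in the authors' deposited table were Cdh8 as higher and Pcdhb7 as lower, where 4.25% and 2.97% of genes passed in those directions. The median log2 fold change of the members was -0.05, with 19 above and 20 below 0, against 0.00 for all tested genes, and 8 of 39 (20.5%) reached an unadjusted p under 0.05, against 27.4% of all tested genes. In OE against KD, Cdh20 was lower and none was higher, with 2.37% of all tested genes lower and 2.93% higher, 5.3% in all. At an unadjusted p under 0.05 there were 6 of 39 members here (15.4%, against 20.1% of all tested genes), and the median was 0.11 with 23 above and 16 below 0. DESeq2 called 0 members in either direction in OE against KD, and the authors' deposited table has Cdh17 and Cdh20 as lower and none as higher, where 1.47% and 1.95% of genes passed. The comparisons with control use the same 2 control libraries, and OE against KD uses the same OE and KD libraries again.

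**Figure D2:**
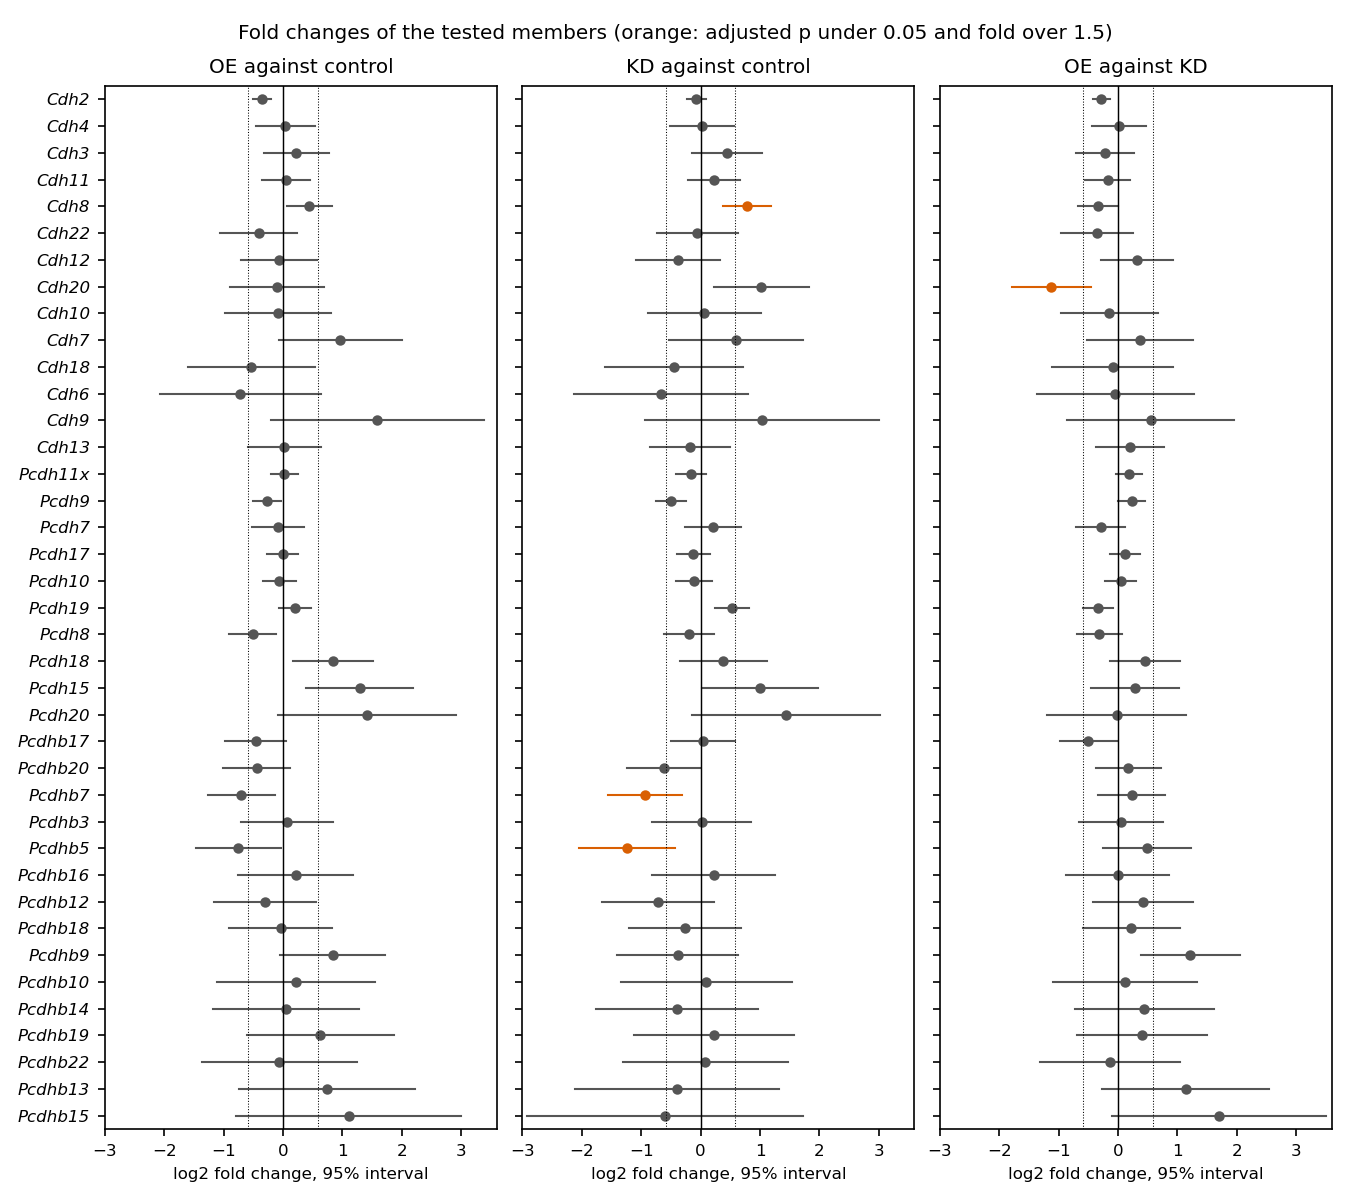
Log2 fold changes of the 39 tested members with 95% intervals, in OE against control, KD against control and OE against KD. Orange marks the genes that passed (Cdh8, Pcdhb5 and Pcdhb7 in KD against control, Cdh20 in OE against KD), and dotted lines mark a fold of 1.5. Intervals are narrow for Cdh2 and the delta protocadherins and wide for Cdh9, Pcdh20 and Pcdhb15.

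Among the classical type I cadherins, Cdh2 (N-cadherin, the main cadherin of neural tissue, chromosome 18, minus strand) had the most counts of any member. Its levels were 903, 858 and 977 CPM in OE, 1109 and 1107 CPM in KD, and 1155 and 1178 CPM in control libraries. Every OE library lay below every KD and control library, and the KD libraries lay just below the control ones. Its log2 fold change was -0.35 in OE against control (SE 0.07, edgeR adjusted p = 0.00171), a 1.28-fold lower level, and -0.28 in OE against KD (SE 0.07, adjusted p = 0.0101). It therefore met the adjusted p but not the fold of 1.5. At the adjusted p alone, 2.6% of all tested genes were lower in OE against control and 3.35% in OE against KD. In the authors' deposited table the same gene has a log2 fold change of -0.35 in OE against control with an adjusted p of 0.000185. In KD against control its log2 fold change was -0.07 with an interval of -0.24 to 0.09.

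The other type I genes were far lower. Cdh4 (R-cadherin, first known from retina) had 26.1, 29.3 and 33.0 CPM in OE, 29.3 and 29.0 CPM in KD, and 29.8 and 27.5 CPM in control libraries. The 3 groups overlapped, with log2 fold changes of 0.04 in OE (interval -0.46 to 0.53) and 0.02 in KD (-0.51 to 0.56) against control. Cdh3 (P-cadherin, known from placenta and skin) averaged 26.4 ± 3.94 CPM in OE (SD, n = 3), 30.8 ± 6.70 CPM in KD and 22.8 ± 3.95 CPM in control (SD, n = 2 each), and no comparison passed. Cdh1 (E-cadherin, the cadherin of epithelia) had 16 reads in all and Cdh15 (M-cadherin, of muscle) had 14, both too few to test.

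The type II cadherins held 2 of the 4 genes that passed a test. Cdh8 (chromosome 8, minus strand), which marks subsets of neurons and their circuits, had 67.2, 55.2 and 66.0 CPM in OE, 76.5 and 82.1 CPM in KD, and 50.3 and 41.6 CPM in control libraries. Both KD libraries were the highest of the 7, both control libraries the lowest, and the OE libraries lay between without overlap. The log2 fold change was 0.78 in KD against control (SE 0.20, edgeR adjusted p = 0.00585), a 1.71-fold rise. It was 0.44 in OE against control (SE 0.19, adjusted p = 0.170) and -0.33 in OE against KD (interval -0.67 to 0.00, adjusted p = 0.249). The authors' deposited table gives 0.76 for KD against control with an adjusted p of 0.0178. Without KD replicate 2 the adjusted p of the KD rise was 0.0632, and without control replicate 2 it was 0.0623, so that each of these libraries decides the call. Cdh8 is the only tested member with the 8-base seed match (Pcdha11, listed at 0, holds one too), and its level was above control in both OE and KD.

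Cdh20 (chromosome 1, plus strand), the mouse relative of the chick motor neuron cadherin, was a gene of low counts, with 35, 21 and 28 reads in OE, 57 and 72 in KD, and 15 and 19 in control libraries. Scaled to CPM, these were 10.6, 7.34 and 8.64 in OE, 17.8 and 21.1 in KD, and 7.33 and 12.2 in control libraries. Both KD libraries stood above all others, and OE and control overlapped. In OE against KD it was 2.18-fold lower (log2 fold change -1.12, SE 0.33, edgeR adjusted p = 0.0261), and in the authors' deposited table the log2 fold change is -1.08 with an adjusted p of 0.0153. Against control, KD had a log2 fold change of 1.02 (SE 0.39, adjusted p = 0.0757), and OE had -0.10 (interval -0.89 to 0.69, adjusted p = 0.927). The OE against KD call was lost without OE replicate 2 (adjusted p = 0.0991) or OE replicate 3 (0.0794). It was also lost with DESeq2 (0.0692) and with the replicate number as a block (0.0822). Without KD replicate 1 or KD replicate 2, which leaves 1 KD library, it was lost too, at log2 fold changes of -1.23 and -0.99.

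Of the other type II genes, Cdh11 (OB-cadherin, common in mesenchyme and also made by neurons) had 74.8, 53.1 and 58.6 CPM in OE, 55.2 and 85.4 CPM in KD, and 58.7 and 62.1 CPM in control libraries. The 3 groups overlapped, and the KD libraries differed most. Its log2 fold change was 0.05 in OE (interval -0.36 to 0.45) and 0.22 in KD (-0.21 to 0.66) against control. Cdh6, Cdh7, Cdh9, Cdh10, Cdh12, Cdh18 and Cdh22, all cadherins of neuronal subsets, averaged 1.30 to 23.3 CPM per group, and none passed in any comparison. Cdh9 had the largest log2 fold change among them (1.58 in OE against control, interval -0.21 to 3.38), on group means of 4.21 ± 1.8 CPM in OE and 1.30 ± 0.929 CPM in control (SD, n = 3 and n = 2). Cdh5 (VE-cadherin, the adhesion protein of endothelium) had 5 reads in all. The 5 endothelial markers, with Cldn5 alone at 0 and 1 tested, summed to 3.09 to 10.95 CPM in OE, 5.62 to 7.63 CPM in KD and 1.47 to 7.05 CPM in control libraries. Cdh19, a cadherin of Schwann cell precursors, was at 0. Of 7 Schwann cell and neural crest markers, which include Gap43 of growing axons, Erbb3 was at 0 as well and 5 were tested, and the list summed to 1496 to 1892 CPM in OE, 1486 to 1696 CPM in KD and 1812 to 1900 CPM in control libraries.

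Outside the classical families, Cdh13 (T-cadherin, which lacks a cytoplasmic tail and is held by a lipid anchor) was the only tested gene. It had 19.5, 23.8 and 19.4 CPM in OE, 23.7 and 12.6 CPM in KD, and 20.5 CPM in each control library. The groups overlapped, with log2 fold changes of 0.02 in OE and -0.18 in KD against control. Cdh17 (a cadherin of intestine and liver) was singled out after its values were seen. It had 0 reads in all 3 OE libraries, 11 and 4 in KD, and 0 and 1 in control libraries. Nearly all its reads were thus in KD, 11 of 16 in a single library. KD against OE was at least 7.42-fold higher when OE is set to a floor of 3 counts over the group. The ratio of KD to control, 15 against 1 counts, was 8.64 with a 95% counting interval of 1.33 to 364. That interval covers counting error only and not the spread between libraries. Cdh17 did not reach the filter for testing. With no filter beyond 1 count, edgeR gave it an adjusted p of 0.426 in KD against control and 0.0438 in OE against KD. The authors' deposited table lists it as lower in OE against KD with an adjusted p of 0.0384. Cdh23, which forms the tip links of hair cells with Pcdh15, had 19 reads in all and was not tested.

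**Figure D3:**
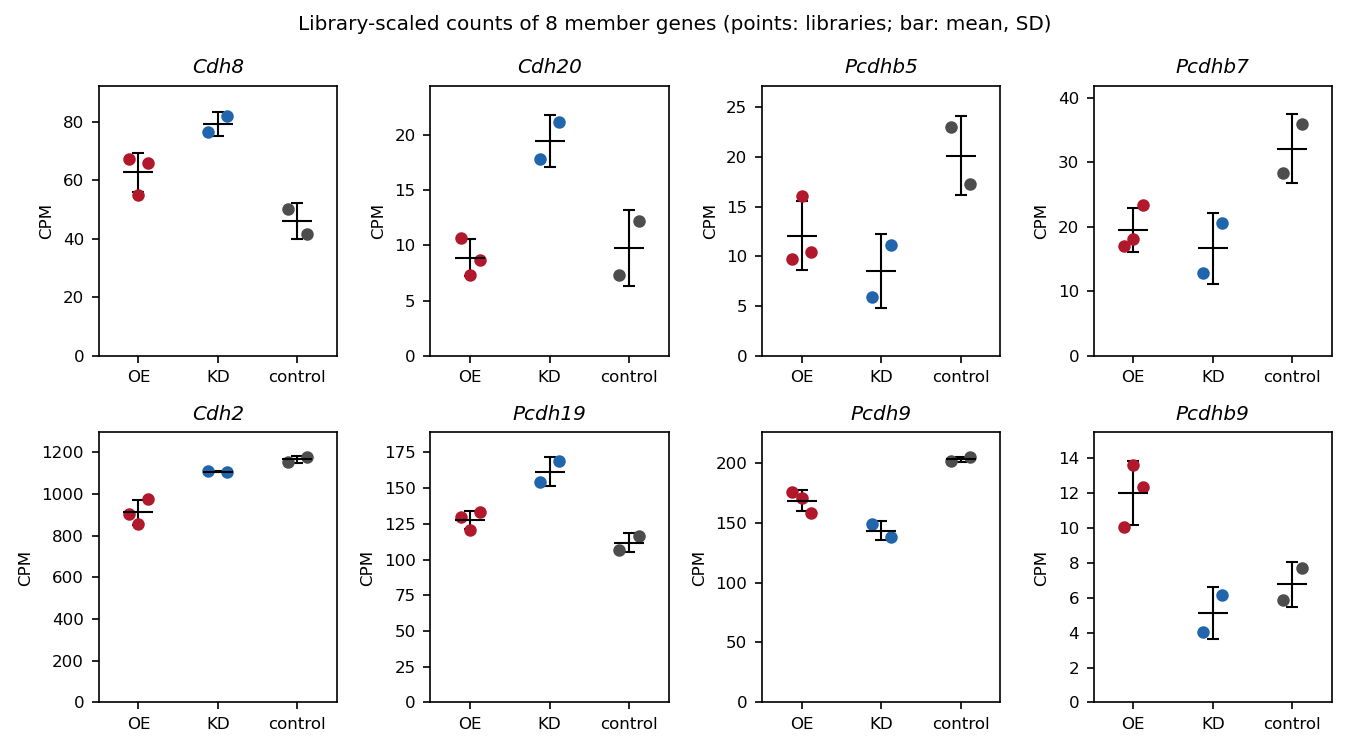
CPM of 8 members in each library (points), with the mean and SD of OE (n = 3), KD and control (n = 2 each). Cdh8, Cdh20 and Pcdh19 are highest in KD, Pcdh9, Pcdhb5 and Pcdhb7 are lower in KD than in control, Cdh2 is lowest in OE, and Pcdhb9 is highest in OE.

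The delta-1 protocadherins together gave 422, 415 and 421 CPM in OE, 389 and 373 CPM in KD, and 457 and 451 CPM in control libraries, so that the 3 groups did not overlap. Pcdh9 (chromosome 14, minus strand), a protocadherin of cortical and retinal neurons, had 175, 171 and 158 CPM in OE, 149 and 138 CPM in KD, and 201 and 204 CPM in control libraries. Its groups did not overlap either, with KD lowest and control highest. Its log2 fold change in KD against control was -0.50 (SE 0.13, edgeR adjusted p = 0.00522), a 1.42-fold lower level that met the adjusted p and not the fold of 1.5. In OE against control it was -0.27 (interval -0.50 to -0.04, adjusted p = 0.170). Pcdh11x (chromosome X, plus strand), an X-linked protocadherin of brain, had 199, 189 and 229 CPM in OE, 184 and 179 CPM in KD, and 202 and 204 CPM in control libraries. Its log2 fold changes were 0.02 in OE (interval -0.21 to 0.25) and -0.16 in KD (-0.41 to 0.09) against control, both intervals within a fold of 1.5. Pcdh7 averaged 45.1 ± 11 CPM in OE (SD, n = 3), 55.2 ± 0.781 CPM in KD and 47.5 ± 7.43 CPM in control (SD, n = 2 each), and Pcdh1 had 11 reads in all.

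Among the delta-2 protocadherins, several of which recruit actin regulators of the WAVE complex, Pcdh17 (an axonal and presynaptic protein) had 185, 159 and 173 CPM in OE, 150 and 167 CPM in KD, and 195 and 149 CPM in control libraries. Pcdh10 (OL-protocadherin, of axon tracts) had 145, 117 and 156 CPM in OE, 135 and 136 CPM in KD, and 161 and 129 CPM in control libraries. In both genes the groups overlapped, and the log2 fold changes lay between -0.12 and 0.11, with no interval beyond a fold of 1.5. Pcdh19 (chromosome X, minus strand), the gene of a human epilepsy that mainly affects girls, had 130, 120 and 133 CPM in OE, 154 and 169 CPM in KD, and 107 and 117 CPM in control libraries. The KD libraries were highest, control lowest, and OE lay between. Its log2 fold change in KD against control was 0.53 (SE 0.14, edgeR adjusted p = 0.00776), a 1.45-fold higher level, just under the fold of 1.5. It passed both limits without KD replicate 1 (0.59, adjusted p = 0.0233), without control replicate 2 (0.60, adjusted p = 0.0152) and with total counts only (0.61, adjusted p = 0.00207). Without control replicate 1 (0.47, adjusted p = 0.0675) or KD replicate 2 (0.46, adjusted p = 0.0998) it missed the adjusted p too. In OE against KD it was -0.34 (SE 0.12, adjusted p = 0.0816). At the adjusted p alone, 7.81% of all tested genes were higher and 7.23% lower in KD against control.

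The remaining delta-2 genes did not pass. Pcdh8 (arcadlin, which draws N-cadherin off the surface of rat neurons) had 55.3, 39.1 and 56.5 CPM in OE, 54 and 71.3 CPM in KD, and 74.3 and 69.2 CPM in control libraries. All OE libraries lay below the control ones, with a log2 fold change of -0.51 (SE 0.19, adjusted p = 0.114). Pcdh18 had 19.8, 19.9 and 26.5 CPM in OE, 12.8 and 19.4 CPM in KD, and 14.7 and 9.61 CPM in control libraries, with a log2 fold change of 0.84 in OE against control (SE 0.33, adjusted p = 0.132). In KD against control the log2 fold changes were -0.20 for Pcdh8 and 0.38 for Pcdh18, with intervals on both sides of 0.

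The other non-clustered protocadherins were low. Pcdh15 (the partner of Cdh23 in hair cells) had 16.4, 14 and 10.8 CPM in OE, 7.18 and 15.3 CPM in KD, and 4.40 and 7.05 CPM in control libraries. All OE and KD libraries lay above both control libraries, with log2 fold changes of 1.29 in OE (SE 0.45, adjusted p = 0.0788) and 1.00 in KD (SE 0.48, adjusted p = 0.169). Pcdh20 had 24, 9 and 22 reads in OE, 16 and 23 in KD, and 8 and 0 in control libraries. Its log2 fold changes of 1.41 in OE and 1.43 in KD against control had intervals that reach below 0. Without control replicate 1, which leaves the library with 0 reads as the control, Pcdh20 passed in both OE (adjusted p = 0.0298) and KD (0.0186).

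Separation of the libraries was common in both directions and in all genes. In OE against control, 7 members had every OE library above both control libraries and 6 had every one below, of 39, while 18.1% and 17.3% of all tested genes did so. For KD against control the numbers were 7 above and 7 below, against 27.2% and 26.1% of all tested genes, and in OE against KD 4 above and 5 below, against 18.5% and 19.4%. The members' shares of separated genes were thus close to or below those of all genes.

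The beta cluster (chromosome 18, plus strand), a run of genes with 1 large coding exon each in most cases, was the only protocadherin cluster with counts. Of its 22 genes, 20 had a count and 15 were tested, with 2.24 to 28.1 CPM on average over the libraries. The summed level was 185, 173 and 159 CPM in OE, 138 and 166 CPM in KD, and 210 and 188 CPM in control libraries. Control libraries were the highest of the 7, and the KD and OE libraries overlapped. In KD against control, 2 of 15 passed as lower and none as higher, where 4.71% of all tested genes were lower and 7% higher. The beta genes had a median log2 fold change of -0.38 here (6 above and 9 below 0). The medians were 0.04 in OE against control (8 above and 7 below) and 0.23 in OE against KD (12 above and 3 below).

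Pcdhb5 had 32, 46 and 34 reads in OE, 19 and 38 in KD, and 47 and 27 in control libraries, and because the control libraries are the shallowest these are 9.73, 16.1 and 10.5 CPM in OE, 5.93 and 11.2 CPM in KD, and 23.0 and 17.3 CPM in control. Both control libraries were highest, and OE and KD overlapped. It fell 2.36-fold in KD against control (log2 fold change -1.24, SE 0.40, edgeR adjusted p = 0.0308). In OE against control the log2 fold change was -0.75 (SE 0.35, adjusted p = 0.229). The KD call was lost without KD replicate 1 (adjusted p = 0.273), without control replicate 1 (0.194) and with DESeq2 (0.0616).

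Pcdhb7 had 17, 18.2 and 23.5 CPM in OE, 12.8 and 20.5 CPM in KD, and 28.4 and 35.9 CPM in control libraries. Again both control libraries were highest and the other groups overlapped. It fell 1.91-fold in KD against control (log2 fold change -0.93, SE 0.31, edgeR adjusted p = 0.0366), and had -0.70 in OE against control (SE 0.28, adjusted p = 0.135). This call was lost without KD replicate 1 (adjusted p = 0.313), without control replicate 2 (0.203), with DESeq2 (0.0646) and with scaling to total counts only (0.0568). Beside these 2 genes, markers of other neurons summed to 2858 to 3102 CPM in OE, 2728 to 2785 CPM in KD and 3158 to 3227 CPM in control libraries. Slc6a5 was at 0, and 1 of 7 tested was lower in each of OE and KD against control. Of all tested genes, 1.26% were lower in OE and 4.71% in KD. The summed markers of other neurons were lowest in KD, as Pcdh9 was. The motor neuron, dividing-cell and smooth muscle markers given above were highest in KD, as Cdh8, Cdh20 and Pcdh19 were. Their part in these results was not tested.

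The best counted beta genes did not pass. Pcdhb17 had 20.7, 26.2 and 21.9 CPM in OE, 27.5 and 37.2 CPM in KD, and 29.8 and 33.3 CPM in control libraries, all OE libraries being below the rest, with log2 fold changes of -0.46 in OE against control (adjusted p = 0.332) and -0.50 in OE against KD (adjusted p = 0.221). Pcdhb20, a pseudogene in the annotation, had 31.6, 24.5 and 17.3 CPM in OE, 16.9 and 26.4 CPM in KD, and 35.7 and 30.8 CPM in control libraries. Pcdhb9, singled out after its values were seen, had 10.04, 13.6 and 12.3 CPM in OE, 4.06 and 6.16 CPM in KD, and 5.87 and 7.69 CPM in control libraries, so that all OE libraries were above the rest. Its log2 fold change in OE against KD was 1.22 (SE 0.41, adjusted p = 0.0629), and 0.0375 when only the OE and KD libraries were fitted.

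Several beta genes varied widely between libraries of a group, as did some other members of low counts. Cdh18, for example, had 3.42 and 17.9 CPM in the control libraries. Libraries of the same group differed over 2-fold in 8 of 15 tested beta genes in OE, 4 in KD and 8 in control. The genes also resemble each other in sequence. Of the 50-base windows along a beta gene's longest protein-coding transcript, a median of 3.84% (0 to 12%, 21 genes) occur exactly in a protein-coding transcript of another gene. The shares were 5.22% for Pcdhb5, 8.56% for Pcdhb7 and 8.75% for Pcdhb9. Reads from such windows do not map uniquely and so are left out of the counts of either gene. Other sequence, with that of Pcdhb20, was not searched, so these shares are lower limits.

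**Figure D4:**
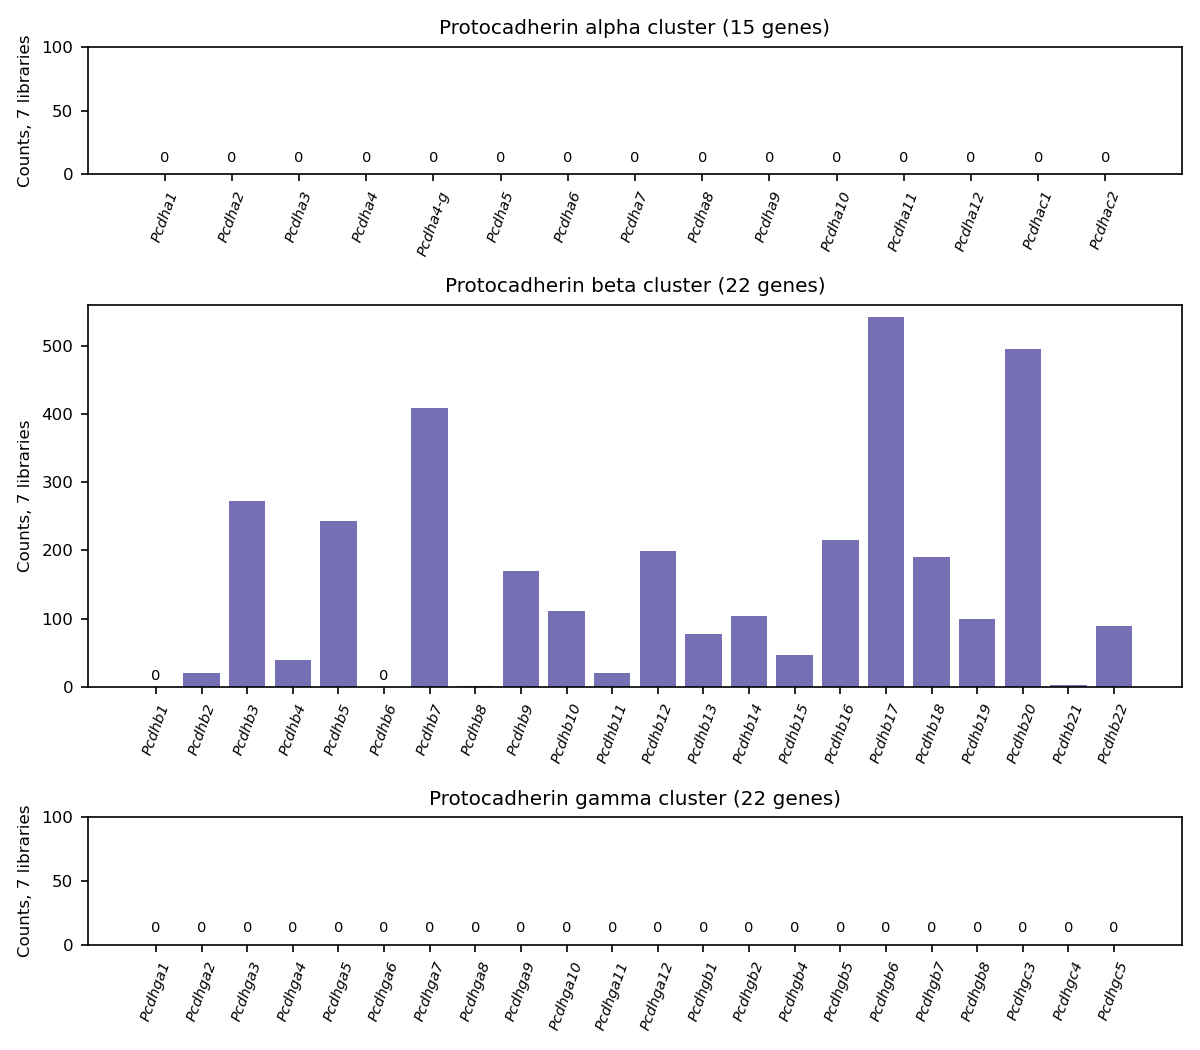
Reads summed over the 7 libraries for each gene of the alpha, beta and gamma protocadherin clusters (beta genes in genome order, alpha and gamma genes by number). A 0 marks a gene with no read. Beta genes reach 542 reads at Pcdhb17, whereas the 15 alpha and 22 gamma genes have none.

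The alpha and gamma clusters, broadly expressed in neurons, were at 0 throughout. In the annotation, 10 of 11 alpha transcripts and 10 of 10 gamma transcripts share exon bases with another transcript of their cluster, a median of 459 of 2847 exonic bases in alpha and 2119 of 4709.5 in gamma, and 9 and 10 of them share the last exon. None of the 22 beta transcripts do so. How reads that fall in more than 1 gene were counted is not given in the sources used here, and the part of the shared exons in these zeros was not tested. The zeros say only that no read was assigned to those symbols. With 3 reads as the limit that a count of 0 allows, a gene could be assigned up to 0.893 CPM in the deepest and 1.88 CPM in the shallowest library, counting error only.

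**Figure D5:**
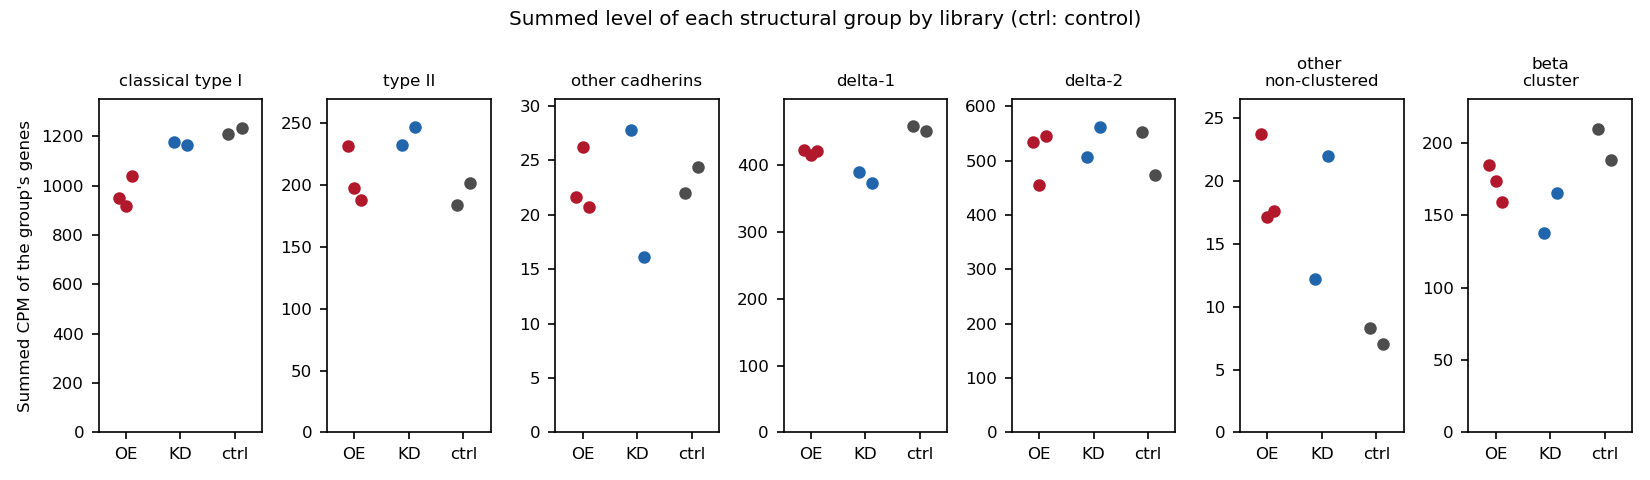
Summed CPM of each structural group that had counts, in each library (points; OE left, KD, then control). The delta-1 sums separate all 3 groups, type I sums are lowest in OE, type II sums are highest in KD and overlap between OE and control, and the beta sums are highest in control.

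Grouped by the seed match, the 6 tested members with one had a median log2 fold change of 0.00 in OE against control (3 above and 3 below 0), and the 30 without one had 0.03. For KD against control the medians were -0.15 (2 above and 4 below 0) with a match and 0.03 without one. Of the windows printed above, Pcdh8 had log2 fold changes of -0.51 in OE and -0.20 in KD against control, Pcdh10 had -0.07 in OE and -0.11 in KD, Pcdh19 had 0.20 in OE and 0.53 in KD, and Cdh8 had 0.44 in OE and 0.78 in KD. Only Pcdh8 and Pcdh10 among these 4 were negative in OE, and neither passed. The 3′ UTRs with a match were longer, with a median of 2674 bases, than those without one (1270 bases).

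Of 22 tested catenins and adhesion partners, Ctnna1 (alpha-catenin, the link from cadherins to actin) and Vcl (vinculin, which reinforces that link) rose in OE against control and again in KD against control. Ctnna1 had 65.7, 81.1 and 94.4 CPM in OE, 69.6 and 86.5 CPM in KD, and 43.5 and 32.7 CPM in control libraries, with log2 fold changes of 1.06 in OE (adjusted p = 0.000728) and 1.02 in KD (adjusted p = 0.000941). Vcl had 0.71 in OE (adjusted p = 0.0128) and 0.72 in KD (adjusted p = 0.0096). Ctnnd2 (delta-catenin of neurons) fell in KD against control (-0.70, adjusted p = 8.39e-05), and Ctnnb1 (beta-catenin) had -0.58 there (adjusted p = 5.36e-06), just under the fold of 1.5. So 2 rose and 0 fell in OE, 2 rose and 1 fell in KD, and 0 passed in OE against KD. Of all tested genes, 3.65% rose and 1.26% fell in OE, 7% rose and 4.71% fell in KD, and 5.3% passed in OE against KD. The list had median log2 fold changes of 0.05 in OE and -0.02 in KD against control and 0.03 in OE against KD.

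Of 13 tested genes of the wider superfamily, Ret, the GDNF receptor with cadherin-like domains, rose in OE (log2 fold change 1.13, adjusted p = 0.035) and KD (1.09, adjusted p = 0.0352) against control. It is also 1 of the motor neuron markers. Celsr2, a planar polarity cadherin, fell in KD against control (-0.62, adjusted p = 0.0201) and was higher in OE against KD (0.79, adjusted p = 0.00122), and Fat3 was lower in OE against KD (-0.63, adjusted p = 0.0218). The medians were 0.17 in OE and 0.37 in KD against control and -0.08 in OE against KD. Of 7 tested repressors of E-cadherin and its relatives, Zeb2 rose in OE (0.72, adjusted p = 0.0209) and KD (0.99, adjusted p = 0.00114) against control. Tcf4 rose in KD against control (1.15, adjusted p = 1.18e-10) and was lower in OE against KD (-0.88, adjusted p = 1.95e-09). The list's medians were 0.56 in OE and 0.99 in KD against control and -0.26 in OE against KD, while all tested genes had medians of 0.00 and 0.00 against control and -0.01 in OE against KD. Their target Cdh1 was too low to test, with 1 read in each OE library, 2 in each KD library, and 5 and 4 in control libraries. With no filter beyond 1 count, edgeR gave Cdh1 an adjusted p of 0.362 in OE and 0.540 in KD against control. Of 13 regulators of protocadherin promoter choice, such as Ctcf and cohesin, Setdb1 (a histone methyltransferase) fell in KD against control (-0.72, adjusted p = 0.0111) and the others did not pass. Of all tested genes, 3.65% rose and 1.26% fell in OE, and 7% rose and 4.71% fell in KD against control. In OE against KD, 2.93% were higher and 2.37% lower. Astrocyte, radial glia and dividing-cell markers also differed from control in both OE and KD. In OE against KD, 0 of 10 astrocyte and radial glia markers passed, and 3 of 8 dividing-cell markers were lower. The part of these markers was not tested.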

How the data were processed

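Whole-number counts per gene were used as deposited in a table of all genes. Per the labels' protocols, 50-base single reads were aligned to mm9 by TopHat2 2.0.10, and HTSeq-count 0.6.1p1 took those mapping uniquely. The annotation, the strand setting and the rule for overlapping genes were not given there, so such genes cannot be told apart. The authors' deposited DESeq2 (1.4.5) comparisons are signed linear fold values (a score here), log2 fold changes and adjusted p-values, quoted only where named.

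Counts were tested with edgeR 4.0.16 (R 4.3.3): TMM scaling, filterByExpr, robust quasi-likelihood F tests on all 7 libraries with group means, Benjamini-Hochberg adjustment over 12134 genes, two-sided. A call needed an adjusted p under 0.05 and a fold over 1.5. CPM are counts scaled by TMM-adjusted library totals over the tested genes. A standard error is the log2 fold change over the square root of F. The fit had 4 residual degrees of freedom. Alternatives used DESeq2 1.42.0, limma-voom 3.58.1, other scalings and filters, and each library left out. No table of reference proteins was used. By rule, full values are given for members called, the 2 best counted of each structural group, and list genes called; other members (such as Pcdh19, Pcdh8 and Pcdh18) and Ctnnb1 were picked after their values were seen. The members, lists and marker genes were chosen with earlier results of these data known. Sequences are from mm9 with GENCODE vM1 and from RefSeq. Counting intervals and floors cover counting error only.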

Additional observations from a re-analysis of the deposited data

How the results depend on the processing

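Across 18 alternatives, 117 log2 fold changes of tested members gave 2082 values, of which 2055 stayed on their side of the threshold, 15 lost and 12 gained a call. The sign differed in 128, in 0 cases for a called value. Most of the 117 were not called in the main fit, so the values that stayed say little of the calls. Among the called values, Cdh20 lost its call in 6 of 18 alternatives, Pcdhb7 in 4, Pcdhb5 in 3 and Cdh8 in 2. Members higher in OE against control numbered 0, and 0 to 1 over the 7 fits that leave out 1 library (Pcdh20, without control replicate 1); none were lower, and 1 (Cdh2) without the fold threshold. In KD against control 1 was higher, 2 with total counts only or without the fold threshold (Cdh8 and Pcdh19), and 0 to 2 with 1 library left out; without control replicate 2 the gene called was not Cdh8. There 2 were lower, 3 without the fold threshold (Pcdh9 too), 1 with total counts only, 0 with DESeq2, and 0 to 2 with 1 library left out. In OE against KD 0 were higher, 1 (Pcdhb9) with only the groups compared, and 0 to 1 with 1 library left out. There 1 was lower, 2 with no filter beyond 1 count (Cdh17 and Cdh20) or without the fold threshold (Cdh2 and Cdh20), 0 with DESeq2, and 0 to 2 with 1 library left out. The cause of these differences was not tested.

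Deviations of same-numbered libraries from their group means correlated at -0.06 to 0.03, which gave no sign of pairing. This check cannot exclude a pairing, because in groups of 2 libraries the deviations are mirror images. With the replicate number as a block, 0 members were lower in OE against KD (Cdh20, edgeR adjusted p = 0.0822). Scaling to total counts only moved the share of higher genes among all calls to 70.8% in KD against control, against 59.8%, and to 40.1% in OE against KD, against 55.4%. The widest intervals were those of low members. The half-width of the log2 interval exceeded a fold of 1.5 for 24 of 39 in OE and 26 of 39 in KD against control.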
